A study of Mus musculus with 15 samples.

Results

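The insulin-like growth factor (IGF) axis was followed in whole PDA30364 tumors, through the 9 genes Igf1 and Igf2 (the ligands), Igf1r (the signaling receptor) and Igfbp2 to Igfbp7 (binding proteins). The genes were chosen by name out of 18193 genes with a probe set of their own, and each was read from the probe set with 1 gene symbol and the highest mean signal over the 15 arrays. The list was drawn up with earlier results of these arrays known, among them the high Igfbp2 signal of the MEKi tumors, so the values of Igfbp2 in MEKi against control tumors are given as a description with no test.

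PDA30364 is a mouse pancreatic ductal adenocarcinoma (PDA) line from a genetically engineered model. All tumors were subcutaneous grafts of this 1 line in C57BL/6-Ly5.1 mice that were 6 to 12 weeks old when inoculated, and they were taken on day 26. The combination group (MEKi/CD40 Ab, n = 4) received the MEK inhibitor GDC-0623 at 30 mg/kg daily for about 2 weeks and an agonist anti-CD40 Ab on treatment days 3, 5 and 7 and 1 day before analysis. The MEKi group (n = 3) received GDC-0623 with control IgG, the CD40 Ab group (n = 4) received vehicle (MCT) with the anti-CD40 Ab, and the control group (n = 4) received vehicle with control IgG. One Affymetrix mouse 3′ expression array was run per tumor, and the deposited values are log2 signals after robust multi-array average (RMA) processing. A difference of 1 on this scale is therefore a 2-fold difference in signal.

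IGF1 and IGF2 are secreted growth factors that bind the receptor tyrosine kinase IGF1R, which passes the signal on through insulin receptor substrates to the PI3K/AKT and the MEK/ERK pathways. The binding proteins IGFBP2 to IGFBP6 hold IGFs outside the cell with high affinity, and thereby store them, carry them or keep them from the receptor, until proteases such as PAPPA or HTRA1 cut the binding protein. IGFBP7 binds IGFs only weakly. In pancreatic tumors, fibroblasts and macrophages are known sources of IGF1.

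The promoters of the genes with the widest span of group means are shown because the target of the drug, MEK, lies upstream of transcription factors with known DNA motifs. Each window runs from 250 bases before to 50 bases after a RefSeq transcript start (assembly GRCm38.p6) and is written 5′ to 3′ on the strand of the gene, with motif matches in capitals. Igfbp2 lies on chromosome 1 and has 2 such windows, of which the first (chr1:72824230-72824529, plus strand) is at the gene start and the second (chr1:72825137-72825436, plus strand) is downstream of it. The window of Igf1 is at chr10:87860861-87861160 on the plus strand, downstream of the gene start at 87858265. That of Igfbp5 is at chr1:72874816-72875115 on the minus strand, at the gene start.
Igfbp2 first window: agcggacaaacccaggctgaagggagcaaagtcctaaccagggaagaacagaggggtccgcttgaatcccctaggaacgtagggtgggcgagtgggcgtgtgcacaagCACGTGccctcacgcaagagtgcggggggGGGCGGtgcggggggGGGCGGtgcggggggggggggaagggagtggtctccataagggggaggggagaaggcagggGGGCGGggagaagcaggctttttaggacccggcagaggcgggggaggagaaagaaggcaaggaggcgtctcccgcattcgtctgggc
Igfbp2 second window: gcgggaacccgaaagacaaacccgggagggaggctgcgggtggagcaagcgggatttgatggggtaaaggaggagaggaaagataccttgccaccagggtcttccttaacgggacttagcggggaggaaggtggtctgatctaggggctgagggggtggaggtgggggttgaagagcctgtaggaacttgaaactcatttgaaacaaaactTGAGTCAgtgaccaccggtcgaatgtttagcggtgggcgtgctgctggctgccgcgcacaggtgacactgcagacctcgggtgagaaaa
Igf1 window: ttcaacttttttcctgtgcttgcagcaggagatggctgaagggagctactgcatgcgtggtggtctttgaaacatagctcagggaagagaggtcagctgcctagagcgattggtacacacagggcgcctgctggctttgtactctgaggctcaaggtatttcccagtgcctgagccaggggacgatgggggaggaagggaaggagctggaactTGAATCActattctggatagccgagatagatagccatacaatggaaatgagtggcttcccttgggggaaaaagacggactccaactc
Igfbp5 window: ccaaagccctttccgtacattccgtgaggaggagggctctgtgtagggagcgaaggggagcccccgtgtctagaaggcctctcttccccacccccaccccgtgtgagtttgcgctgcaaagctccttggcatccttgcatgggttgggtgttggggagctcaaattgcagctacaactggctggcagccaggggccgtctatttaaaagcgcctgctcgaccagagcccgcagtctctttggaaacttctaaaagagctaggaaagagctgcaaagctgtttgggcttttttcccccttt
The motifs searched on both strands were the AP-1 site TGANTCA, the ETS site CCGGAAG, the forkhead site GTAAACA, the E-box CACGTG, the GC box GGGCGG and the TATA box TATAAA, none of which contains another. In the first Igfbp2 window, the capitals mark an E-box that begins 142 bases before the start and 3 GC boxes that begin 113, 98 and 37 bases before it. The capitals in the second Igfbp2 window (TGAGTCA) and in the Igf1 window (TGAATCA) mark matches to the AP-1 letters, in which N stands for any base. They begin 39 and 37 bases before the transcript start of their window, which in both is not the gene start. No such match was found in the Igfbp5 window. Over 32851 windows of 300 bases, the AP-1 letters were present in 7.81%, the E-box in 7.15% and the GC box in 35.7%, so a match in 1 window describes the sequence and does not mark a bound site. Igfbp2 and Igfbp5 are neighbors that point towards each other on chromosome 1, with 5590 bases between their ends.

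The array medians lay between 5.16 and 5.24, which the quantile normalization within RMA makes alike. MEKi replicate 1 was the least like any other array, with a highest correlation of 0.987, against 0.9945 or more for the rest. It had the highest signal of its group in 8 of the 9 genes. The epithelial markers of the tumor line (10 genes, Krt19 and Epcam among them) averaged 10.2 to 11.1 on every array, yet 2 of 10 rose and 2 fell in MEKi against control tumors. Epcam rose by 2.81 (adjusted p = 0.0112) and the mucin gene Muc1 by 1.28, while the transcription factor gene Sox9 fell by 0.54 on the log2 scale. A list of 14 genes of ERK output was lower in all 4 combination tumors, at a mean log2 signal of 8.59 to 8.66, than in MEKi tumors (8.87 to 9.07) and control tumors (9.12 to 9.26). In this list, 11 of 14 genes fell in combination against control tumors and 4 of 14 in MEKi against control tumors. The largest falls in combination tumors were those of Dusp4 (-1.06), an ERK phosphatase gene, and of the transcription factor genes Fosl1 and Egr1 (-0.85). Over all genes, 21.1% passed in MEKi against control tumors and 19.0% in combination against control tumors. The shares were 6.22% in combination against CD40 Ab tumors and 4.03% in combination against MEKi tumors. Every list count in the text is to be read against the share of its comparison. By the mouse numbers in the labels, all combination tumors came from a lower number series (below 10000) and all MEKi tumors from an upper one. No source used here says what separates these series, and between combination and MEKi tumors the series and the treatment cannot be told apart. CD40 Ab tumors came from 2 mice of each series, and control tumors from 3 mice of the lower and 1 of the upper. With the series as a covariate, MEKi against control tumors therefore rests on that 1 control tumor, so only sizes are given.

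Igf1, the ligand that signals mainly through IGF1R, was highest in the MEKi tumors. Its log2 signals were 8.14, 8.12, 8.10 and 8.75 in combination tumors, 11.04, 9.28 and 9.20 in MEKi tumors, 7.36, 6.23, 6.89 and 6.44 in CD40 Ab tumors and 7.19, 7.18, 7.38 and 7.02 in control tumors. The 3 MEKi tumors lay above the 4 combination tumors, and these lay above all 8 tumors without the drug. Igf1 rose 6.27-fold in MEKi against control tumors (2.65 ± 0.40 on the log2 scale, SE; adjusted p = 0.00421, limma over 45037 probe sets). In combination tumors it rose 2.12-fold against control tumors (1.09 ± 0.15, adjusted p = 0.00151) and 2.92-fold against CD40 Ab tumors (1.55 ± 0.24, adjusted p = 0.0110). In these whole tumors, more cells that express a gene and more RNA per cell cannot be told apart, for Igf1 and for every gene below.

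The order of the Igf1 means was MEKi, combination, control and CD40 Ab. The step between MEKi and combination tumors was not called (-1.56 ± 0.43, adjusted p = 0.107), although the arrays did not overlap on the probe set used. On the other Igf1 probe sets the step ran from -0.79 to -1.83, none was called, and the arrays overlapped on the one at -0.79. MEKi replicate 1 stood apart in Igf1. Without it, the rise in MEKi against control tumors was 2.05 ± 0.11 (adjusted p = 3.97e-05), and Igf1 fell in combination against MEKi tumors (-0.96, adjusted p = 0.0357). CD40 Ab against control tumors gave -0.46 ± 0.21 (adjusted p = 0.511). With the mouse-number series as a covariate, which leaves 1 control tumor to compare with, the Igf1 difference in MEKi against control tumors was 2.82. Within the lower series, Igf1 no longer passed in combination against CD40 Ab tumors (1.48 ± 0.32, adjusted p = 0.0688).

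The genes closest to Igf1 in pattern were Mmp2, which encodes a matrix metalloproteinase (root mean square difference of the centered values 0.26 over 15 arrays), Aebp1 (0.28) and Igdcc4 (0.29), against a spread of 1.23 for Igf1. Fibroblast markers moved with Igf1. Their mean level was 10.16 to 10.56 in combination tumors, 11.81, 10.996 and 11.14 in MEKi tumors, 9.25 to 10.20 in CD40 Ab tumors and 9.63 to 9.87 in control tumors. MEKi replicate 1 was highest in this list as well as in Igf1. In MEKi against control tumors, 10 of 12 fibroblast markers rose, among them the matrix genes Dpt (4.47), Dcn (2.70) and Lum (2.42, log2 differences), and 4 of 12 rose in combination against control tumors. Over all genes, 10.7% rose in the former comparison and 10.3% in the latter. Macrophage markers averaged 9.06 to 9.75 in combination and 9.25 to 9.52 in CD40 Ab tumors, against 8.71 to 8.96 in control tumors. MEKi tumors ranged from 8.47 to 9.63. MEKi replicate 1 (9.63) and CD40 Ab replicate 1 (9.52) were the highest of their groups in this list and in Igf1. Combination replicate 4 (9.06) and control replicate 3 (8.71) were the highest of their groups in Igf1 and the lowest in this list. In combination against control tumors, where 10.3% of all genes rose, 7 of 10 macrophage markers rose. Tyrobp (1.21) and Mpeg1 (1.12) were among them, and the mannose receptor gene Mrc1 fell by 1.33. Of 6 adipocyte markers, 1 rose in that comparison (Lpl, 1.64), where 19.0% of all genes passed. In MEKi against control tumors, 0 passed and 0 had an unadjusted p under 0.05 (limma). The part of fibroblasts or macrophages in the Igf1 signal was not tested.

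Igf2, the other ligand gene, gave log2 signals of 5.73, 5.55, 5.59 and 5.55 in combination tumors, 6.02, 6.00 and 5.91 in MEKi tumors, 5.64, 5.45, 5.52 and 5.43 in CD40 Ab tumors and 5.59, 5.25, 5.71 and 5.35 in control tumors. The MEKi tumors lay above all others. Igf2 rose by 0.50 ± 0.12 in MEKi against control tumors (adjusted p = 0.0241) and fell by 0.37 ± 0.08 in combination against MEKi tumors (adjusted p = 0.0483). Both calls were fragile. The rise was lost without control replicate 2 or 4 or MEKi replicate 2 or 3 (adjusted p 0.0533 to 0.0656), and the fall was lost without any 1 of its 7 arrays (adjusted p 0.0597 to 0.143). With the mouse-number series as a covariate, which leaves 1 control tumor to compare with, the Igf2 difference in MEKi against control tumors was 0.63.

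Igfbp2, which encodes a binding protein with a cell-adhesion motif of its own, spanned the widest range of group means among the 9 genes. Its log2 signals were 9.25, 9.10, 6.76 and 8.73 in combination tumors, 11.52, 9.27 and 9.83 in MEKi tumors, 4.65, 3.53, 6.42 and 4.00 in CD40 Ab tumors and 5.09, 4.28, 4.73 and 5.94 in control tumors. Every tumor given the MEKi, with or without the Ab, therefore lay above every tumor without it, although the lowest combination tumor and the highest CD40 Ab tumor were close to each other. Means were 8.46 ± 1.15 in combination tumors and 10.21 ± 1.17 in MEKi tumors, against 4.65 ± 1.27 in CD40 Ab tumors and 5.01 ± 0.70 in control tumors (SD). All MEKi tumors came from the upper mouse-number series. There the 1 control tumor was at 5.94, against a mean of 4.70 for control tumors of the lower series. CD40 Ab tumors averaged 5.21 in the upper and 4.09 in the lower series. The difference of MEKi from control tumors was 5.20 on the log2 scale, or 36.7-fold, and 4.54 without MEKi replicate 1. Combination and CD40 Ab tumors share no array with that comparison, and here Igfbp2 rose by 3.81 ± 0.69 (SE, 14.0-fold, adjusted p = 0.0183). The list was drawn up with earlier results of these arrays known, so this test cannot be taken as independent of the choice of genes.

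In combination against control tumors, Igfbp2 rose by 3.45 ± 0.54 (adjusted p = 0.00304). Comparisons with control or MEKi tumors share arrays with the Igfbp2 result known beforehand, so their Igfbp2 tests are not independent of it. From high to low, the order of the group means was MEKi, combination, control and CD40 Ab. The lower level of combination against MEKi tumors did not pass the test (-1.75 ± 0.70, 95% interval -3.37 to -0.12, adjusted p = 0.251; -1.09 without MEKi replicate 1), nor did CD40 Ab against control tumors (-0.36 ± 0.57, adjusted p = 0.898). The call in combination against CD40 Ab tumors was lost when CD40 Ab replicate 2 or 4, or combination replicate 1, 2 or 4, was left out. The adjusted p was then 0.0516 to 0.0561 and the log2 difference stayed between 3.44 and 4.40.

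Markers of other tissues moved with Igfbp2 in some comparisons and not in others. Skeletal muscle markers averaged 8.53, 9.81, 8.87 and 8.25 in combination tumors, 10.76, 7.79 and 7.97 in MEKi tumors, 4.47 to 6.56 in CD40 Ab tumors and 4.54 to 7.12 in control tumors. All 13 of 13 muscle markers rose in combination against CD40 Ab tumors, 12 of 13 in combination against control tumors and 3 of 13 in MEKi against control tumors. Over all genes, 3.69%, 10.3% and 10.7% rose in these comparisons. The largest rises against CD40 Ab tumors were those of Myh1 (4.97), Ttn (4.61) and Myh4 (4.59). MEKi replicate 1 and CD40 Ab replicate 3 were highest of their groups in muscle level and in Igfbp2. In combination tumors, replicate 2 was highest in muscle level and replicate 1 in Igfbp2, and in control tumors replicates 3 and 4. Combination replicate 3, lowest of its group in Igfbp2 (6.76), had a muscle level of 8.87, above replicates 1 and 4. Ttn, which encodes the muscle protein titin, was the gene closest to Igfbp2 in pattern over the 15 arrays, with a root mean square difference of 0.95 after centering, set against a spread of 2.45 for Igfbp2 itself. Itgbl1 (0.97) and Ogn, an extracellular matrix proteoglycan gene (1.01), came next.

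Skin and hair follicle markers averaged 6.73, 7.37 and 7.16 in MEKi tumors, against 4.44, 4.34, 4.67 and 6.23 in control tumors. Of the 14 markers 9 rose, where 10.7% of all genes rose, led by the hair genes Krtap16-3 (5.04), Krt25 (4.96) and Krtap8-1 (4.94, log2 differences). The other 5 did not pass, namely Krt27 (2.07), Krt1 (0.78), Krt10 (0.12), Lor (0.09) and Flg (-0.02). In combination tumors the 14 markers averaged 4.25 to 5.00, against 4.31 to 5.34 in CD40 Ab tumors. There 0 of 14 passed the test, against 6.22% of all genes, with 0 at an unadjusted p under 0.05 (limma). Among control tumors, replicate 4 had the highest skin and hair level and also the highest Igfbp2 signal, and among CD40 Ab tumors the same held for replicate 3. Combination replicate 1 was likewise highest in both (5.00 and 9.25), whereas MEKi replicate 1 had the highest Igfbp2 signal (11.52) and the lowest skin and hair level (6.73) of its group. Fibroblast markers averaged 11.32 in MEKi, 10.35 in combination, 9.80 in control and 9.66 in CD40 Ab tumors, the order of the Igfbp2 means. The part of muscle tissue, skin tissue or fibroblasts in the Igfbp2 signal was not tested.

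Igfbp5, which encodes a binding protein that also attaches to the extracellular matrix, set the MEKi tumors apart. Its log2 signals were 7.92, 7.99, 7.66 and 8.06 in combination tumors, 10.06, 9.52 and 9.69 in MEKi tumors, 7.08, 6.91, 7.39 and 7.48 in CD40 Ab tumors and 7.66, 7.07, 7.66 and 7.10 in control tumors. The MEKi tumors did not overlap with any other group. Igfbp5 rose 5.22-fold in MEKi against control tumors (2.38 ± 0.20, adjusted p = 0.000325) and fell in combination against MEKi tumors by 1.85 ± 0.15 (adjusted p = 0.00112). In combination against CD40 Ab tumors it rose by 0.69 ± 0.14 (adjusted p = 0.0259), and combination against control tumors lay at the threshold without passing it (0.54 ± 0.16, adjusted p = 0.05003).

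Both of the smaller Igfbp5 values turned on single arrays. The call in combination against CD40 Ab tumors was lost without CD40 Ab replicate 1 or 2 or combination replicate 1, 2 or 4 (adjusted p 0.0560 to 0.0724), and combination against control tumors passed without control replicate 1 or 3 or combination replicate 3 (adjusted p 0.0388 to 0.0435). The nearest patterns were those of Med12l (root mean square difference 0.23 over 15 arrays), the cadherin gene Fat4 (0.31) and Ptk7 (0.32), against a spread of 0.97 for Igfbp5. Among skin and hair follicle markers, 9 of 14 rose in MEKi against control tumors, where 10.7% of all genes rose. In combination against MEKi tumors 9 of 14 fell, where 2.65% of all genes fell. Krt1, Krt10, Lor and Flg passed in neither. The part of skin and hair tissue in the Igfbp5 values was not tested.

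Igfbp3, the main carrier of IGFs in blood, ran the other way. Its log2 signals were 11.62, 11.53, 11.46 and 11.54 in combination tumors, 10.98, 10.28 and 10.30 in MEKi tumors, 11.59, 11.28, 11.51 and 11.14 in CD40 Ab tumors and 11.49, 11.51, 11.49 and 11.31 in control tumors. All 3 MEKi tumors lay below all 12 others, whose groups overlapped with each other. Igfbp3 fell by 0.93 ± 0.17 on the log2 scale in MEKi against control tumors (1.91-fold, adjusted p = 0.00856) and rose by 1.02 ± 0.17 in combination against MEKi tumors (adjusted p = 0.0217). Against control tumors, combination tumors differed by 0.09 ± 0.07 (95% interval -0.06 to 0.24, adjusted p = 0.434).

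The rise of Igfbp3 in combination against MEKi tumors was kept without MEKi replicate 1 and lost without any other of the 7 arrays (adjusted p 0.0553 to 0.0929), with log2 differences of 0.90 to 1.25. With the mouse-number series as a covariate, which leaves 1 control tumor to compare with, the difference in MEKi against control tumors was -0.79. Closest to Igfbp3 in pattern were Ptprb, an endothelial phosphatase gene (root mean square difference 0.15 over 15 arrays), Plxnd1, a semaphorin receptor gene (0.16), and Fkbp1b (0.17), against a spread of 0.42. Endothelial markers averaged 5.87 to 6.47 in combination tumors, 6.82, 5.92 and 6.01 in MEKi tumors, 6.25 to 6.95 in CD40 Ab tumors and 6.16 to 6.37 in control tumors. In MEKi against control tumors, 2 of these 9 markers fell, while 21.1% of all genes passed there (10.4% down). They were Cldn5 (-1.33), a tight-junction gene, and Vwf (-1.18), the von Willebrand factor gene. The other 7 did not pass, Kdr (0.75) and Pecam1 (0.72) among them, and the median of the list was 0.14. The part of endothelial cells in the Igfbp3 values was not tested.

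Igfbp4, which encodes the binding protein that PAPPA cuts, was also lowest in MEKi tumors. Its log2 signals were 12.48, 12.51, 12.51 and 12.69 in combination tumors, 12.49, 11.97 and 12.26 in MEKi tumors, 12.77, 12.66, 12.64 and 12.79 in CD40 Ab tumors and 12.84, 12.88, 12.77 and 12.79 in control tumors. Both groups given the MEKi lay below all control tumors, whereas combination and MEKi tumors overlapped at their edges. Igfbp4 fell by 0.58 ± 0.12 in MEKi against control tumors (adjusted p = 0.0139) and by 0.27 ± 0.07 in combination against control tumors (adjusted p = 0.0224). The value in combination against control tumors held its size but not its call when control replicate 1 or 2 or combination replicate 1, 2 or 3 was left out (adjusted p 0.0513 to 0.0634). With the mouse-number series as a covariate, which leaves 1 control tumor to compare with, MEKi against control tumors gave -0.55.

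Igfbp6, which encodes a binding protein that prefers IGF2, was higher in both groups given the drug. Its log2 signals were 7.21, 7.37, 8.15 and 7.56 in combination tumors, 8.79, 6.71 and 6.93 in MEKi tumors, 6.47, 5.51, 5.96 and 5.99 in CD40 Ab tumors and 6.38, 6.12, 6.57 and 6.13 in control tumors. Every combination and MEKi tumor lay above every CD40 Ab and control tumor. Igfbp6 rose 2.42-fold in combination against control tumors (1.27 ± 0.19, adjusted p = 0.00251) and 3.01-fold in combination against CD40 Ab tumors (1.59 ± 0.23, adjusted p = 0.00841). MEKi against control tumors did not pass (1.18 ± 0.45, adjusted p = 0.117), and without MEKi replicate 1 the smaller difference of 0.52 ± 0.14 passed (adjusted p = 0.0420). Within the lower mouse-number series, combination against CD40 Ab tumors gave 1.58 ± 0.32 (adjusted p = 0.0614). Combination and MEKi tumors differed by 0.10 ± 0.48, with a 95% interval of -1.01 to 1.20. Klhl13 (root mean square difference 0.31 over 15 arrays), Gas6, which encodes a ligand of the AXL receptor (0.32), and Arsi (0.34) were nearest in pattern, against a spread of 0.86. Pericyte and smooth muscle markers averaged 7.95 to 8.39 in combination, 7.53 to 8.15 in MEKi, 6.68 to 7.45 in CD40 Ab and 6.93 to 7.09 in control tumors. Of these 6 markers, 5 rose in combination against control tumors, led by Tagln (1.79), Des (1.48) and Cnn1 (1.41, log2 differences), and 5 rose in combination against CD40 Ab tumors. Over all genes, 10.3% and 3.69% rose in these comparisons. Of the muscle and fibroblast lists, 12 of 13 and 4 of 12 rose in combination against control tumors. In combination against MEKi tumors, where Igfbp6 differed by 0.10, 4 of 12 fibroblast markers fell (list median -0.88), against 2.65% of all genes, and 0 of 13 muscle markers passed. The part of these cells in the Igfbp6 values was not tested.

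Igfbp7, the weak IGF binder, which is prominent in vessel walls, passed the test in none of the comparisons. The Igfbp7 signal was 12.48 to 12.66 in combination tumors, 12.02 to 12.36 in MEKi tumors, 12.11 to 12.41 in CD40 Ab tumors and 12.26 to 12.44 in control tumors. On the probe set used, combination tumors did not overlap with any other group. The differences were small, at 0.40 ± 0.10 against MEKi (adjusted p = 0.0911), 0.27 ± 0.09 against CD40 Ab (adjusted p = 0.110) and 0.22 ± 0.07 against control tumors (adjusted p = 0.0694). The first of these passed without MEKi replicate 1 (0.49, adjusted p = 0.0319). On the other Igfbp7 probe sets, combination tumors overlapped with control tumors (differences 0.22 and -0.03) and with CD40 Ab tumors (0.30 and 0.02).

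Igf1r, the receptor gene, passed in none on the probe set used. It ranged from 7.86 to 8.31 in combination, 7.89 to 8.21 in MEKi, 7.97 to 8.18 in CD40 Ab and 8.09 to 8.33 in control tumors, so all groups overlapped. Its 95% interval was -0.40 to 0.08 in MEKi against control tumors and -0.42 to 0.05 in combination against control tumors. One of its 4 other probe sets fell in combination against control tumors (-0.47 ± 0.10, adjusted p = 0.0127), and so did the mean over its probe sets (-0.26 ± 0.08, adjusted p = 0.0385).

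**Figure D1:**
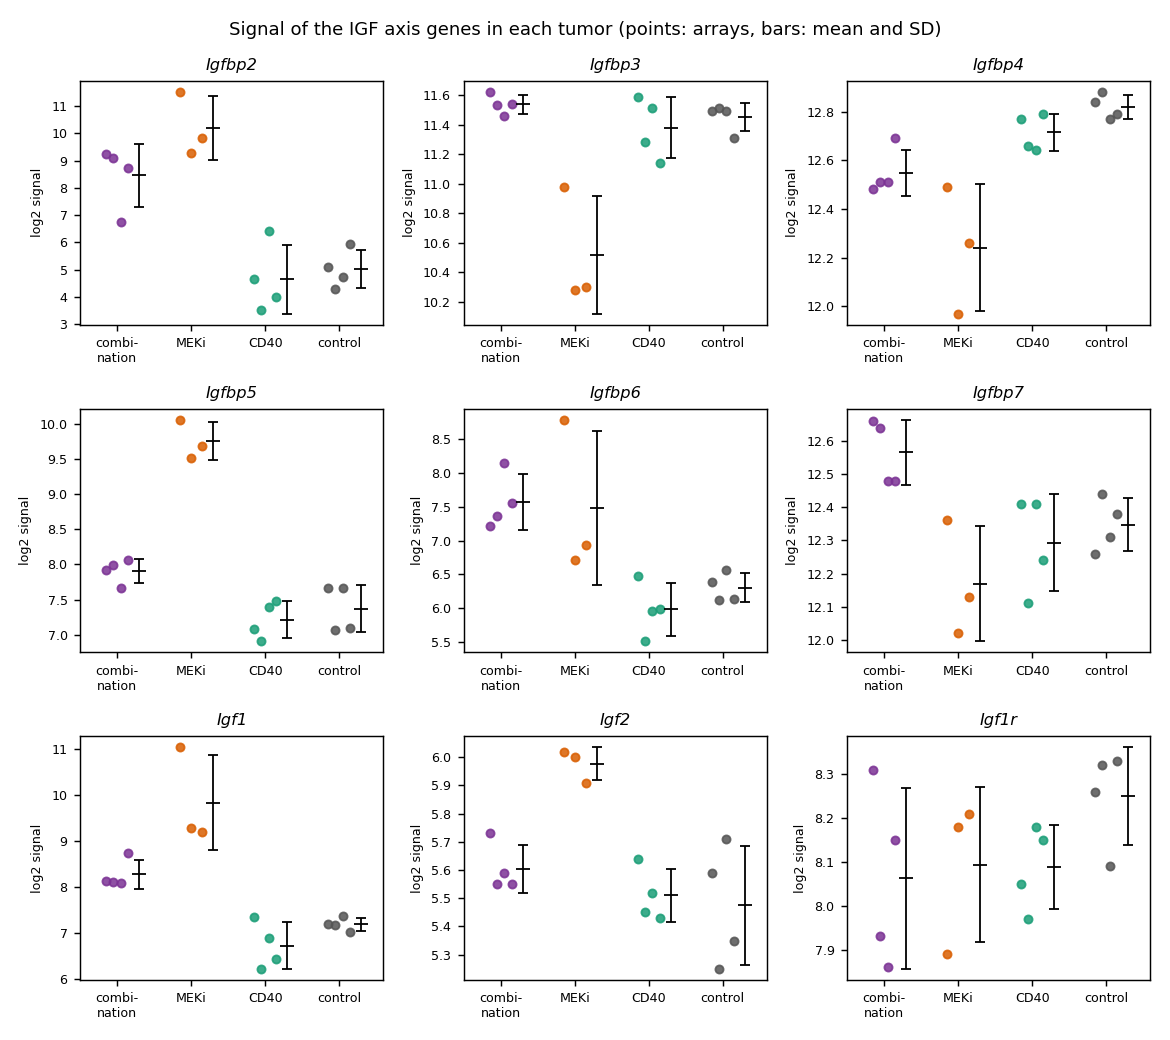
Log2 RMA signal of the 9 IGF axis genes in each tumor, with combination, MEKi, CD40 Ab and control tumors from left to right. Points are arrays, and the bars beside them show the mean and SD (n = 4, 3, 4 and 4). Igfbp2 lay at 6.76 or above in all tumors given the MEKi and at 6.42 or below in all others, whereas Igfbp5 and Igf2 were high in the 3 MEKi tumors and Igfbp3 was low in them.

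All 9 genes were chosen with earlier results of these arrays known, so the counts below describe the list and are not independent of that choice. With Igfbp2 left aside, 5 of the 8 other genes passed in MEKi against control tumors, 3 up and 2 down. Over all genes, 21.1% passed in this comparison (10.7% up, 10.4% down). The arrays of the groups did not overlap for 6 of these 8, against 35.7% of all genes. The median log2 difference was 0.17 over the 8 genes and -0.04 over all genes. Over all 9 genes, 4 of 9 passed in combination against control tumors (3 up, 1 down), against 19.0% of all genes (10.3% up, 8.72% down), and 5 of 9 did not overlap, against 26.8%. These 2 comparisons share the control arrays, and Igfbp2 was known beforehand to be high in MEKi tumors against them. Without Igfbp2, 3 of 8 genes passed in combination against control tumors (2 up, 1 down), and 4 of 8 did not overlap.

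In combination against CD40 Ab tumors, 4 of 9 passed, all upwards (Igfbp2, Igfbp5, Igfbp6 and Igf1), where 6.22% of all genes passed in either direction and 3.69% upwards. The arrays did not overlap for 5 of 9, against 17.4% of all genes. Combination against MEKi tumors gave 3 of 9 (Igfbp3 up, Igfbp5 and Igf2 down), against 4.03% of all genes (1.38% up, 2.65% down). The arrays did not overlap for 6 of 9, or for 5 of 8 without Igfbp2, against 19.6% of all genes. In CD40 Ab against control tumors, 0 of 9 passed in limma, and 0 had an unadjusted p under 0.05, against 1.06% of all genes that passed. The adjusted p-values there were 0.511 to 0.950, and the widest 95% interval, that of Igfbp2, ran from -1.64 to 0.92.

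**Figure D2:**
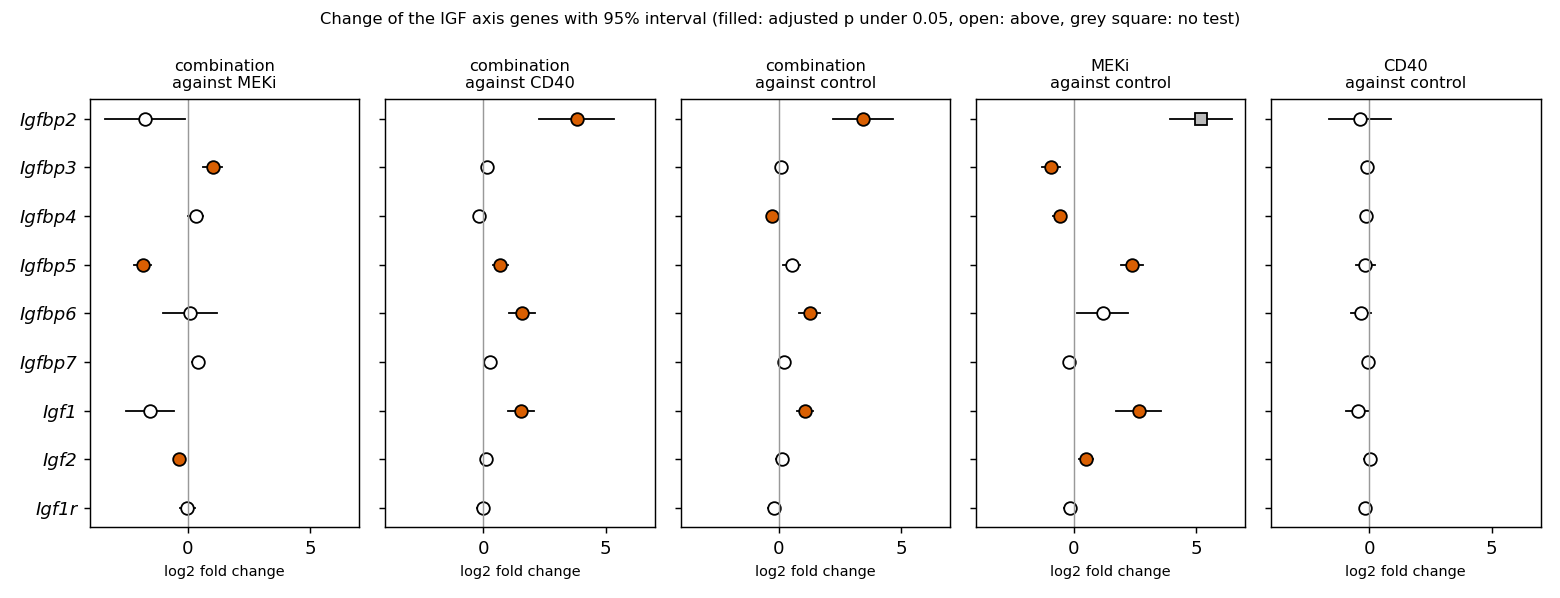
Log2 fold changes of the 9 genes in 5 comparisons, with 95% intervals. Filled circles passed an adjusted p of 0.05, open circles did not, and the grey square is the Igfbp2 value of MEKi against control tumors (5.20), which was not tested. Igfbp2, Igfbp6 and Igf1 passed in both comparisons that set combination tumors against tumors without the MEKi, Igfbp3 and Igfbp5 took opposite directions wherever MEKi tumors entered, and no gene passed in CD40 Ab against control tumors.

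Whether the Ab changed a gene differently in the presence of the MEKi was asked with the interaction, that is, combination minus MEKi less CD40 Ab minus control, over all 15 arrays. It passed for 2 of 9 genes, 1 in each direction, against 4.56% of all genes (2.00% up, 2.56% down). For Igfbp5 it was -1.69 ± 0.25 (adjusted p = 0.00290), and for Igfbp3 it was 1.09 ± 0.20 (adjusted p = 0.0108). For Igfbp2 (-1.39 ± 0.99, adjusted p = 0.523), Igf1 (-1.10 ± 0.50, adjusted p = 0.273) and Igfbp6 (0.41 ± 0.53, adjusted p = 0.763) the intervals were wide. With the mouse-number series as a covariate, neither Igfbp5 (-1.57 ± 0.35, adjusted p = 0.0859) nor Igfbp3 (0.91 ± 0.27, adjusted p = 0.198) passed, and the Igfbp2 value changed sign (0.08 ± 1.25). On the probe set used, Igfbp4 did not pass (0.41 ± 0.14, adjusted p = 0.119), but 4 of its 5 other probe sets did (0.64 to 0.89), and so did the mean over its probe sets (0.68 ± 0.11, adjusted p = 0.00353). Without MEKi replicate 1, Igfbp4 on the probe set used (0.54, adjusted p = 0.0201) and Igfbp7 (0.55, adjusted p = 0.0258) passed as well.

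The 9 genes had 26 probe sets between them, 17 beside those used, and the probe sets of a gene did not always move alike. The 3 other Igf1 probe sets rose by 1.89 to 2.90 in MEKi against control tumors and by 1.16 to 1.51 in combination against CD40 Ab tumors, all past the test. The other Igfbp3 probe set fell by 0.98 ± 0.14 in MEKi against control tumors (adjusted p = 0.00313). The 5 other Igfbp4 probe sets, all dimmer than the one used, fell by 0.73 to 1.28 there, more than the 0.58 of the brightest, and 4 of them rose in combination against MEKi tumors by 0.56 to 0.80. In combination against CD40 Ab tumors, 3 of these 5 fell, where the brightest did not pass (-0.17 ± 0.07, adjusted p = 0.209). For Igfbp5 the second probe set was nearly flat, at 6.16 in combination, 6.40 in MEKi, 6.15 in CD40 Ab and 6.19 in control tumors, with 0.21 ± 0.10 in MEKi against control tumors (adjusted p = 0.173). The second Igf2 probe set was dim, at 2.88 in combination, 2.93 in MEKi, 3.05 in CD40 Ab and 3.01 in control tumors, and gave -0.08 ± 0.08 in MEKi against control tumors. Igfbp2 and Igfbp6 rest on 1 probe set each.

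**Figure D3:**
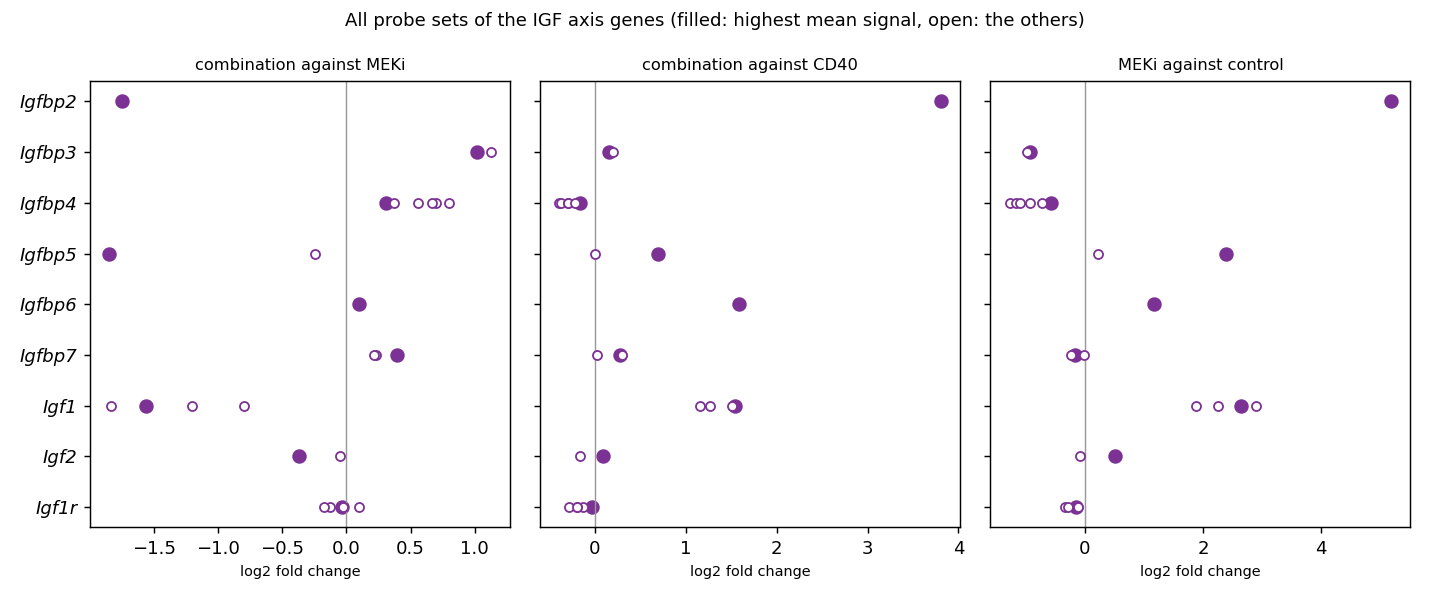
Log2 fold changes of all 26 probe sets of the 9 genes in 3 comparisons. Filled circles are the probe sets with the highest mean signal, which carry the values of the text, and open circles are the 17 others. In MEKi against control tumors, the Igf1 probe sets all rose (1.89 to 2.90) and both Igfbp3 probe sets fell (by 0.93 and 0.98). The Igfbp4 probe set used gave the smallest fall of 6 there (0.58 against 0.73 to 1.28), and the 2 Igfbp5 probe sets lay at 2.38 and 0.21.

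Genes that act on the same axis were counted from fixed lists. Over all genes, 21.1% passed in MEKi against control, 19.0% in combination against control and 6.22% in combination against CD40 Ab tumors. Of 12 partners and proteases of the binding proteins, 4 rose and 1 fell in MEKi against control tumors. The proteases Htra1 (1.68 ± 0.14, adjusted p = 0.000325) and Pappa (1.47 ± 0.21, adjusted p = 0.00316) rose, while Kazald1, an IGFBP-related gene, fell by 1.05 ± 0.17 (adjusted p = 0.00548). In combination tumors, 3 of these 12 rose and 2 fell against control tumors, and 3 rose and 0 fell against CD40 Ab tumors. The median over this list was 0.17 in MEKi against control tumors.

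Of 8 other IGF receptors and adaptors, 2 rose and 3 fell in MEKi against control tumors, and again 2 rose and 3 fell in combination against control tumors. Grb10, an adaptor that restrains IGF1R and the insulin receptor, rose by 1.92 ± 0.32 (adjusted p = 0.00624), and Igf2r, the receptor that removes IGF2 from the surroundings, rose by 0.88 ± 0.15 (adjusted p = 0.00680). Grb14, a further adaptor of this family, fell by 0.50 ± 0.10 (adjusted p = 0.0129), all in MEKi against control tumors. Among 16 measured genes of the PI3K/AKT relay, 2 rose and 2 fell in either comparison with control tumors, a share close to the 21.1% and 19.0% of all genes. The regulatory subunit genes Pik3r3 (1.11 ± 0.19, adjusted p = 0.00709) and Pik3r1 (0.76 ± 0.14, adjusted p = 0.00940) rose in MEKi against control tumors, and Rictor, an mTOR complex gene, fell by 0.45 ± 0.09 (adjusted p = 0.0107).

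Of 6 genes of the growth hormone relay, which drives Igf1 in the liver, 1 rose and 2 fell in MEKi against control tumors. The growth hormone receptor gene Ghr fell by 0.97 ± 0.17 (adjusted p = 0.00806) and Socs2, a feedback inhibitor, by 0.44 ± 0.09 (adjusted p = 0.0121), while Cish, another feedback inhibitor, rose by 0.64 ± 0.10 (adjusted p = 0.00523). Of the 6 CCN genes, which encode matrix proteins with an IGFBP-like domain, 3 rose in combination against control tumors, namely Ccn1 (0.89 ± 0.20, adjusted p = 0.0163), Ccn5 (0.83 ± 0.23, adjusted p = 0.0432) and Ccn4 (0.82 ± 0.19, adjusted p = 0.0191), and 1 rose in MEKi against control tumors. None of these 5 lists had a gene past the test in CD40 Ab against control tumors or in combination against MEKi tumors, where 1.06% and 4.03% of all genes passed. At an unadjusted p under 0.05, limma gave 2 receptors or adaptors, 2 partners or proteases and 1 PI3K/AKT gene in CD40 Ab against control tumors.

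**Figure D4:**
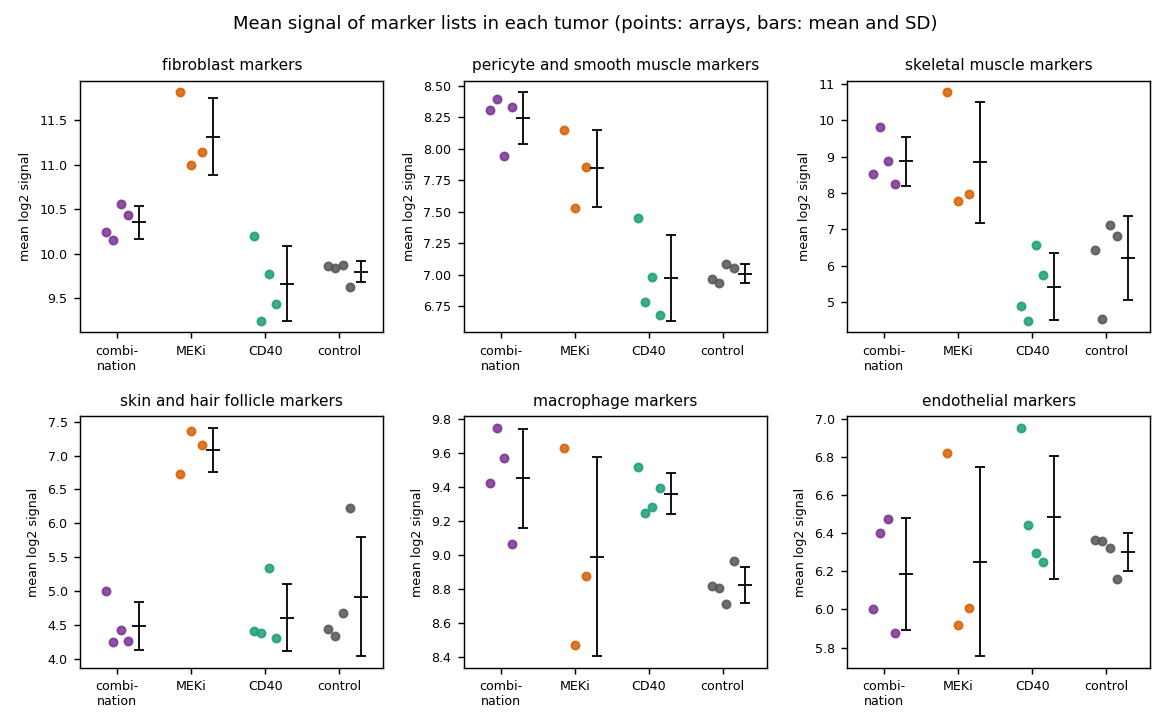
Mean log2 signal of 6 marker lists in each tumor, with combination, MEKi, CD40 Ab and control tumors from left to right. Points are arrays, and bars show the mean and SD. Fibroblast markers were highest in MEKi tumors (up to 11.81), skin and hair follicle markers were high in MEKi tumors (6.73 to 7.37) and in control replicate 4 (6.23), and muscle markers were high in combination and MEKi tumors (7.79 to 10.76).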

How the data were processed

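Total RNA from pieces of 15 snap-frozen tumors (combination 4, MEKi 3, CD40 Ab 4, control 4) was hybridized to 1 Affymetrix mouse 3′ expression array per tumor. The deposited log2 values are RMA signals made by the authors (background correction, quantile normalization, summarization), per the labels; the RMA version is not given in the sources used here. The labels speak of 4 to 5 mice per group, and why MEKi has 3 arrays is not stated. Of 45101 probe sets, 64 controls were left out. Each pair of groups was fitted alone with limma 3.58.1 (R 4.3.3; lmFit, eBayes, two-sided) over 45037 probe sets with Benjamini-Hochberg adjustment and a threshold of 0.05, and the interaction over all 15 arrays. This was tested on simulated data. Of the probe sets, 34945 carried 1 symbol, which gave 18193 genes.

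All 9 members are described whatever their values, and none was removed by a filter on low signal. From each other list, up to 3 genes with the largest passing change in the comparison with the most calls were named. The 3 nearest patterns are genes with the smallest root mean square difference from a member after both were centered, for members whose group means span at least 1. A list's level is the mean log2 signal of its measured genes, and 142 of 147 listed genes other than members were measured. Members and lists were chosen with earlier results of these data known. Promoter sequences are those of RefSeq (GRCm38.p6), and all 9 members matched. Alternatives were the arrays in the fit, the variance prior, array weights, further quantile normalization, the probe set of a gene, a filter on low signal, the replicate block, the mouse-number series and leaving out each array. The number of arrays limits the precision. Figures were drawn with matplotlib 3.10.9.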

Additional observations from a re-analysis of the deposited data

Results flagged for a closer look

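For Igfbp5 and Igfbp3, combination tumors differed from MEKi tumors otherwise than CD40 Ab tumors differed from control tumors. Combination and MEKi tumors also differ in mouse-number series, and the series and the treatment cannot be told apart there. The interaction was -1.69 for Igfbp5 and 1.09 for Igfbp3 on the log2 scale (limma, over 15 arrays), and it was past the threshold for both, but not with the mouse-number series as a covariate.

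Among 69 groups of 4 tumors examined for a single far value, 6 had one, where chance gives about 1 in 20. Combination replicate 4 was above the other 3 in Igfbp4 (12.69, against 12.48 to 12.51) and in Igf1 (8.75, against 8.10 to 8.14). Control replicate 4 was below the other 3 in Igfbp3 (11.31, against 11.49 to 11.51) and in the level of fibroblast markers (9.63, against 9.85 to 9.87). In CD40 Ab tumors, replicate 1 was high in the level of the CCN genes (7.56, against 6.88 to 6.94) and replicate 3 in that of the skin and hair follicle markers (5.34, against 4.31 to 4.40). The causes were not tested.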

How the results depend on the processing

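Outside the leave-one-out settings, 541 log2 differences and interactions of members kept their direction and their call, 22 lost a call, 18 gained one, and 4 changed direction. The 4 were all uncalled values, namely Igf2 in combination against CD40 Ab tumors with the mean over the probe sets of a gene (-0.035), Igf1r in the same comparison with the mouse-number series as a covariate (0.0525) and in mice numbered under 10000 only (0.0525), and the Igfbp2 interaction with the series as a covariate (0.0776). With a single array left out, uncalled values that changed direction ranged from -0.04 to 0.11 for Igf2, -0.95 to 0.0133 for Igfbp2, -0.0942 to 0.00583 for Igfbp7 and -0.14 to 0.01 for Igfbp3 in CD40 Ab against control tumors, from -0.29 to 0.75 for Igfbp6 and -0.13 to 0.0367 for Igf1r in combination against MEKi tumors, and from -0.11 to 0.0425 for Igf1r in combination against CD40 Ab tumors.

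With the mouse-number series as a covariate, the number of the 9 members past the threshold moved to 0 in the interaction. Within mice under 10000 it was 2 in combination against CD40 Ab tumors. In MEKi against control tumors the covariate leaves 1 control tumor to compare with, so no count is given. For combination against MEKi tumors the covariate could not be fitted. With all arrays in the fit it was 2 in combination against control (Igf1 at an adjusted p of 0.0544 and Igfbp4 at 0.0720 did not pass) and 5 in combination against MEKi tumors. Leaving out probe sets with a letter suffix, which removes Igfbp2, Igfbp4 and Igfbp5 and leaves 6 members, gave 3 in MEKi against control, 2 in combination against control, 1 in combination against MEKi, 2 in combination against CD40 Ab tumors and 1 in the interaction. Array weights gave 4 in the interaction. With the mean over the probe sets of a gene, Igf2 lost its calls in MEKi against control and combination against MEKi tumors, and Igfbp5 lost its call in combination against CD40 Ab tumors (adjusted p = 0.0506). With 1 array left out, the count was 1 to 4 in combination against MEKi, 2 to 4 in combination against CD40 Ab tumors and 2 to 4 in the interaction. Beyond the smaller number of members or arrays in some of these settings, the causes were not tested.

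Deviations of same-numbered replicates from their group means correlated above 0.1 in 9 of 21 pairs (range -0.28 to 0.21). Replicates with different numbers were not set beside them, so this cannot decide whether the numbers pair the tumors. With the replicate number as a block, 1 of 9 members passed in combination against MEKi and 2 of 9 in combination against CD40 Ab tumors.

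Over all probe sets, 7162 passed in MEKi against control tumors (9843 with all arrays). The count with the series as a covariate is left out there, as it rests on 1 control tumor. In combination against control tumors, 6450 passed (3910 with the mean per gene). In CD40 Ab against control tumors, 323 passed (0 without control replicate 1, 2 or 3 or CD40 Ab replicate 4). Combination against MEKi tumors gave 1264 (180 with the block, 3663 with all arrays). Combination against CD40 Ab tumors gave 2019 (933 without combination replicate 2), and the interaction 1441 (84 with the series as a covariate).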
